A study of Mus musculus with 22 samples.

Results

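The 9 genes described here, Mbp, Mog, Mag, Mobp, Cnp, Cldn11, Mal, Ugt8a and Opalin, encode proteins of central myelin or an enzyme that makes its lipid. They were chosen by name among the 21995 genes of the table, with earlier results of these data known. All 9 passed the filter on low counts in every comparison. RNA-seq of whole spinal cord was available from 22 C57BL/6 mice, 1 library per mouse. For normal aging, 8 young mice of 3–4 months were compared with 8 old mice of 18–24 months. All 16 were wild-type males, and their libraries were made with the Roche KAPA HyperPrep kit. For ALS, 3 symptomatic SOD1 G93A mice of 5–6 months were compared with 3 wild-type controls of the same age, each group holding 2 females and 1 male, and these libraries were made with the Illumina TruSeq kit. SOD1 G93A mice carry a human mutant SOD1 transgene in many copies, so the model holds the mutation together with an excess of SOD1. The sex of a given SOD1 G93A or control library was not given in its labels. No numbers in the table tie a library to another mouse, and the libraries are called here by the tags of their columns.

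In the brain and spinal cord, myelin is made by oligodendrocytes, which wrap axons in layers of membrane that are rich in galactosylceramide and sulfatide. Mbp and the related small protein Mobp hold the cytoplasmic faces of these layers together, while Cnp is found in the uncompacted cytoplasmic channels. Mag sits on the innermost layer facing the axon, Mog on the outermost surface, and Opalin is a glycoprotein of the oligodendrocyte membrane. Cldn11 forms the tight junctions between myelin layers, Mal is a lipid raft protein involved in membrane sorting, and Ugt8a is the enzyme that makes galactosylceramide.

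The reads counted on genes came to between 5078092 and 9358055 per library in young mice and between 5664869 and 9145600 in old mice, and to 10693060–13219797 in controls and 9675610–11872431 in SOD1 G93A mice. The smallest count of any of the 9 genes in any library was 230, for Opalin in a young mouse. The 9 genes took 2.02–2.55% of all counts in young, 2.12–2.5% in old, 1.99–2.32% in control and 2.02–2.32% in SOD1 G93A libraries, so their summed share overlapped in both comparisons. Mouse Sod1 was at 168, 156 and 156 CPM (the count scaled to the library's total) in the controls and at 298, 296 and 335 CPM in the SOD1 G93A libraries. Whether reads of the human transgene were counted on it was not tested. Old library d149034 and control library d4444 lay apart from the rest of their groups in a multidimensional scaling of all genes. SOD1 G93A library d4437 differed most from its group in the counts of all genes, with a chi-square per degree of freedom of 32.4 and 17.5 against the other SOD1 G93A libraries, which gave 9.22 between them. In whole tissue, fewer oligodendrocytes and less RNA per oligodendrocyte cannot be told apart.

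Levels were compared between genes only on the FPKM scale, which divides by gene length. In young mice Mbp was the highest of the 9 at 7417 ± 742 FPKM (SD, n = 8), ranking 6 among all genes by mean FPKM. Mobp followed at 1318 ± 88.4 FPKM. Cnp at 397 ± 62.2 FPKM and Mag at 389 ± 49.0 FPKM came next and were not separated by their spread. Cldn11 (225 ± 26.0 FPKM) and Mal (206 ± 24.1 FPKM) also overlapped across young mice. Mog stood at 134 ± 18.3 FPKM and Ugt8a at 83.8 ± 9.37 FPKM, and Opalin was the lowest at 24.9 ± 3.81 FPKM. Apart from the overlapping pairs, the FPKM ranges of neighbours in this order did not overlap in young mice. In SOD1 G93A mice Cldn11 reached 387 ± 49.5 FPKM (n = 3), ahead of Mag (336 ± 26.0) and Cnp (329 ± 34.4), but its range of 343–441 FPKM overlapped those of both.

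The sequence just upstream of a gene is where much of its regulation is read, and in oligodendrocytes SOX10 and MYRF are known to act on myelin genes. RefSeq promoters on GRCm38.p6 were found for 8 of the 9 genes and not for Mbp. The 250 bases before each start were searched on both strands for ACAAAG, a SOX-type core, and for CTGGCAC, a MYRF-type core, which do not overlap in the letters matched. ACAAAG was present upstream of Mag, Mobp, Cnp and Opalin and CTGGCAC upstream of Mag and Cnp, while Mog, Cldn11, Mal and Ugt8a held neither. Among 32851 mouse promoters searched in the same way, 16.5% held ACAAAG, 4.19% held CTGGCAC and 0.691% held both. 5 of them are written out 5′ to 3′ along the gene's strand, Mag and Cnp because they hold both motifs, Mobp because it holds ACAAAG in 6 places, and Cldn11 and Ugt8a because they passed the test in the SOD1 G93A comparison. Capitals mark the motif letters on either strand. For Mobp and Cnp the 250 bases searched ran past the gene start in GENCODE, and only the 215 bases before that start are written out. The regions are chr7:30914923-30915172 on the minus strand for Mag, chr11:100574689-100574903 on the plus strand for Cnp, chr9:120149492-120149706 on the plus strand for Mobp, chr3:31149670-31149919 on the plus strand for Cldn11 and chr3:125938653-125938902 on the minus strand for Ugt8a.
Mag: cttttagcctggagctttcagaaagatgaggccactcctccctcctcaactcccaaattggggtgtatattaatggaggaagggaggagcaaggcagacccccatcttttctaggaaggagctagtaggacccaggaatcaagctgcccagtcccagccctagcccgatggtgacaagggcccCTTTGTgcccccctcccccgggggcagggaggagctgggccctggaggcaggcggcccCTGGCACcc
Cnp: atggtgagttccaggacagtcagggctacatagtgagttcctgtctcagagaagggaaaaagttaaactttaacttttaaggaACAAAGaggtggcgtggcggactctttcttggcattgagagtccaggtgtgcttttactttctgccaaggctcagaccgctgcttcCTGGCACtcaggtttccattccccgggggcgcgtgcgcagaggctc
Mobp: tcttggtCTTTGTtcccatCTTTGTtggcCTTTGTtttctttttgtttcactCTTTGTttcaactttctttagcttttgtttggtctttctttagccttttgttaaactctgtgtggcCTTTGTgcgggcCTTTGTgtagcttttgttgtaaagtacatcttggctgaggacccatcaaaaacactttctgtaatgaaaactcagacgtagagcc
Cldn11: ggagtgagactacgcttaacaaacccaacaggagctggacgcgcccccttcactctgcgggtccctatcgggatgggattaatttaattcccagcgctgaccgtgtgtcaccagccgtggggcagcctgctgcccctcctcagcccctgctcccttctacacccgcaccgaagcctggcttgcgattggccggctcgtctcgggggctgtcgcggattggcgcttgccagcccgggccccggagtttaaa
Ugt8a: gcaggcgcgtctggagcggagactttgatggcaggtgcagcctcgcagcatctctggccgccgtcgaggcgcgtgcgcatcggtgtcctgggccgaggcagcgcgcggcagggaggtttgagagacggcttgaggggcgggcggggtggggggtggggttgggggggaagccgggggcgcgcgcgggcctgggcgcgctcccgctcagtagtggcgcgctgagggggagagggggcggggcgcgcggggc
A match describes the letters alone, and a promoter without a match says nothing about either factor.

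Old and young mice were compared first. Of the 9 genes, 1 rose and 4 fell in old mice at an adjusted p-value under 0.05, where 26.4% of the 13647 genes tested passed, 13.5% rising and 12.9% falling. The gene that rose was Mbp, and those that fell were Ugt8a, Mal, Mog and Cldn11. Mag, Opalin, Mobp and Cnp did not pass. The median log2 fold change of the 9 was -0.16, against 0.00 over all genes tested. None of the 9 passed the study's own thresholds, which also ask for an absolute log2 fold change above 1 and which 2.22% of genes passed.

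**Figure D1:**
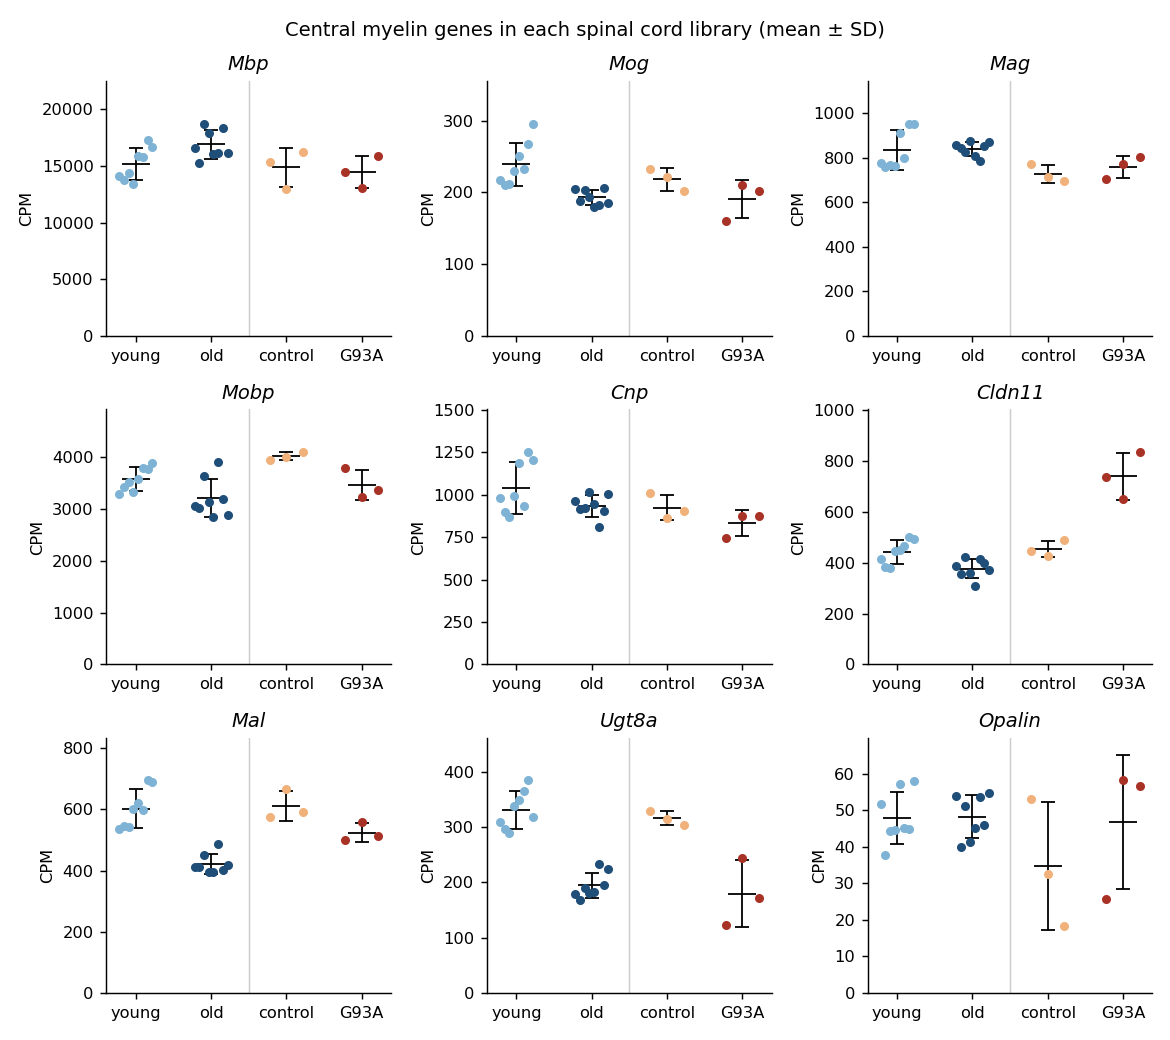
CPM of each of the 9 genes in every library of the 4 groups, on linear axes that start at 0 and differ between genes. Points are mice, and bars are the group mean ± SD. Ugt8a was at 169–234 CPM in old and 289–385 CPM in young mice, and Cldn11 was at 649–835 CPM in SOD1 G93A mice against 426–489 CPM in controls.

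Ugt8a (chromosome 3, 125865271–125938619, minus strand) transfers galactose to ceramide, the step that gives myelin its main glycolipid. Its level in young mice ran from 289 CPM through a median of 328 to 385 CPM, and in old mice from 169 through 186 to 234 CPM. No old mouse reached the lowest young mouse, and such separation was seen downward in 1.66% and upward in 3.66% of all genes. Ugt8a fell by 41.4% in old mice, a log2 fold change of -0.77 (SE 0.07, adjusted p = 1.24e-08). With each of the 16 libraries left out in turn the fold change stayed between -0.81 and -0.74.

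Mal (chromosome 2, 127633226–127656695, minus strand), the raft protein, was the next in size. It was at 535–695 CPM with a median of 599 in young mice and at 394–487 CPM with a median of 413 in old mice, again with no overlap. The log2 fold change was -0.52 (SE 0.06, adjusted p = 5.83e-07). The mice nearest to the gap were the old library d149034, at 487 CPM, and the lowest young library, at 535 CPM.

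Mog (chromosome 17, 37010743–37023398, minus strand), the outer-surface glycoprotein, was at 210.0–296 CPM with a median of 231 in young mice and at 179.8–207 CPM with a median of 191 in old mice. The groups did not overlap, although the highest old and lowest young mice were close. The log2 fold change was -0.31 (SE 0.06, adjusted p = 0.00065). Young mice were also more spread, with an SD of 30.1 CPM against 10.5 CPM in old mice (n = 8 each). Young libraries d149017, d149018, d149019 and d149020 were at 233–296 CPM and the other young libraries at 210.0–229.6 CPM.

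Cldn11 (chromosome 3, 31149920–31164324, plus strand), the tight junction protein of the myelin sheath, fell by less. It was at 379–501 CPM in young mice and 307–422 CPM in old mice, with medians of 448 and 379 CPM, and the groups overlapped. The log2 fold change was -0.23 (SE 0.07, adjusted p = 0.0122). The lowest value belonged to old library d149032, and without that library the log2 fold change was -0.19 with an adjusted p of 0.0244.

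Mbp (chromosome 18, 82475146–82585637, plus strand) was at 13451–17283 CPM in young mice and 15288–18742 CPM in old mice, with medians of 15082 and 16377 CPM. The groups overlapped widely, and the log2 fold change of 0.16 (SE 0.06, adjusted p = 0.0383) was the smallest of those that passed. It no longer passed in 8 of the 16 fits that left out 1 library, where the largest adjusted p was 0.0906. As a share of the counts of the 9 genes, Mbp took 66.6–68.7% in young and 70.2–74.8% in old mice, without overlap. This share is of counts and is not corrected for length.

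The other members of the compaction and channel proteins did not pass. Mobp (chromosome 9, 120149707–120181484, plus strand) was at 3292–3888 CPM in young and 2843–3906 CPM in old mice, with a log2 fold change of -0.16 (95% interval -0.28 to -0.03) and an adjusted p of 0.0545. The highest of all 16 values was that of old library d149034, and without this library the change was -0.20 with an adjusted p of 0.00243. Mobp also passed under 3 of the 7 other settings tried, DESeq2, scaling by total counts and limma on FPKM, with log2 fold changes of -0.16 to -0.17. Cnp (chromosome 11, 100574904–100591729, plus strand) was at 869–1252 CPM in young and 809.9–1013 CPM in old mice, with a log2 fold change of -0.15 (95% interval -0.30 to -0.01, adjusted p = 0.109). Of the 3639 exonic bases of Cnp, 154 are shared with Dnajc7 on the opposite strand, which had a log2 fold change of 0.01 (adjusted p = 0.916). Whether the counting used strand is not given in the sources used here.

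Mag and Opalin were the members whose estimates lay closest to 0. Mag (chromosome 7, 30899176–30914873, minus strand), the adhesion protein facing the axon, was at 759–953 CPM in young and 787–873 CPM in old mice. Its log2 fold change was 0.01, with a 95% interval from -0.10 to 0.12 and an adjusted p of 0.926. Opalin (chromosome 19, 41061710–41077113, minus strand) was at 37.7–57.9 CPM in young and 40.0–54.7 CPM in old mice, with a log2 fold change of 0.00 and an interval from -0.17 to 0.18 (adjusted p = 0.986). These intervals bound the size of a change in either gene that these mice could have hidden.

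SOD1 G93A mice were then compared with their controls. Here 1 of the 9 genes rose, Cldn11, and 1 fell, Ugt8a, where 33.9% of the 14386 genes tested passed, 18.4% rising and 15.5% falling. The median log2 fold change of the 9 was -0.15, against 0.00 over all genes. With all 6 libraries none passed the study's thresholds, which 9.7% of genes passed. With 3 mice in each group, values without overlap are common, at 25.7% of genes upward and 24.7% downward. Cldn11 was above its controls in this sense, and Ugt8a, Mal and Mobp were below theirs.

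Cldn11 was at 444, 426 and 489 CPM in the controls and at 736, 649 and 835 CPM in the SOD1 G93A libraries. All 3 SOD1 G93A mice lay above all 3 controls. Cldn11 rose by 63.3%, a log2 fold change of 0.71 (SE 0.11, adjusted p = 0.00287). The call held in 6 of 6 fits that left out 1 library, with the largest adjusted p at 0.0233.

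Ugt8a was at 329, 316 and 304 CPM in the controls and at 123, 244 and 171 CPM in the SOD1 G93A libraries. The controls lay close together, while the SOD1 G93A mice were spread over a wider range with none reaching the controls. Ugt8a fell by 43.3%, a log2 fold change of -0.82 (SE 0.21, adjusted p = 0.0161). Its fold change kept its direction in 6 of 6 fits that left out 1 library, from -1.10 to -0.60, but it passed the threshold in 3 of them. The call was lost without control d4438, control d4441 or SOD1 G93A library d4443, with adjusted p of 0.0560, 0.0545 and 0.0720. Without SOD1 G93A library d4437, the one with the highest Ugt8a of its group, the log2 fold change was -1.10 (adjusted p = 7.54e-05), past the study's thresholds. Without control d4444, which lay apart in the scaling of all genes, Ugt8a had a log2 fold change of -0.85 (adjusted p = 0.0493) and Cldn11 of 0.76 (adjusted p = 0.0145).

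**Figure D2:**
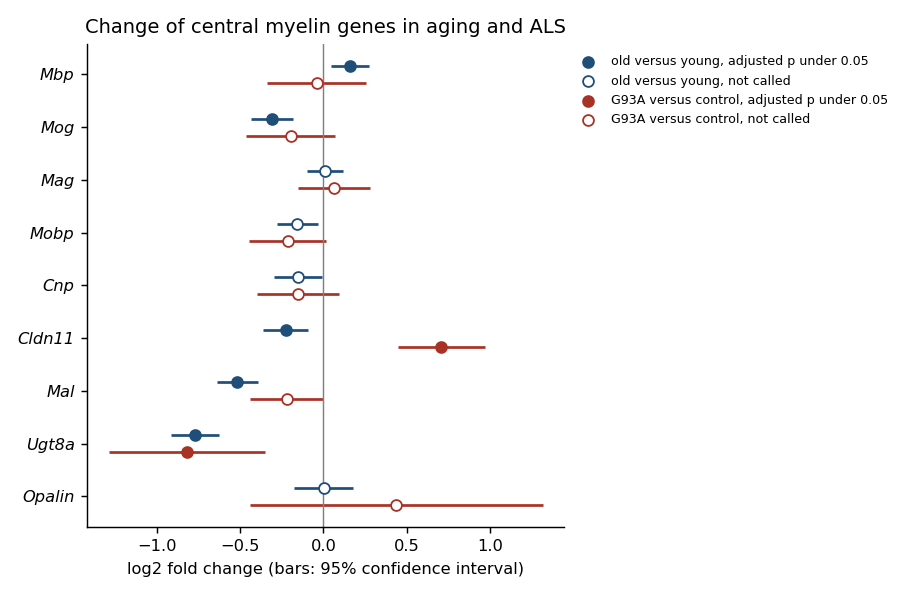
Log2 fold change of each of the 9 genes in old against young and in SOD1 G93A against control mice, with 95% intervals from the edgeR fits; filled points have an adjusted p under 0.05. Ugt8a is near -0.8 in both comparisons, and Cldn11 is below 0 in old mice and at 0.71 in SOD1 G93A mice.

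Mal and Mobp were lower in every SOD1 G93A mouse than in any control but did not pass the test within these libraries. Both passed narrowly in a single fit of all 22 libraries, Mal at -0.25 (adjusted p = 0.0410) and Mobp at -0.24 (adjusted p = 0.0495). Mal was at 576, 665 and 590.4 CPM in the controls and at 499.5, 558 and 514 CPM in the SOD1 G93A libraries, with a log2 fold change of -0.22 (SE 0.10, adjusted p = 0.110), and it passed without d4437 (-0.27, adjusted p = 0.0252). Mobp was at 3942, 3997 and 4095 CPM in the controls and at 3778, 3232 and 3368 CPM in the SOD1 G93A libraries, with a log2 fold change of -0.21 (SE 0.10, adjusted p = 0.137).

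The remaining 5 members overlapped between the groups. Mbp was at 15384, 12975 and 16233 CPM in the controls and at 14422, 13067 and 15883 CPM in the SOD1 G93A libraries, a log2 fold change of -0.04 with a 95% interval from -0.34 to 0.26 (adjusted p = 0.838). Mag, with a log2 fold change of 0.06 (interval -0.15 to 0.28, adjusted p = 0.638), and Cnp, with -0.15 (interval -0.40 to 0.09, adjusted p = 0.302), did not pass. Mog had a log2 fold change of -0.20 (interval -0.46 to 0.07, adjusted p = 0.232). Opalin was the least precise, at 53.1, 32.7 and 18.4 CPM in the controls and 25.7, 58.2 and 56.7 CPM in the SOD1 G93A libraries. Its values were spread over both groups alike, and its interval from -0.44 to 1.32 (log2 fold change 0.44, adjusted p = 0.415) left a wide range of changes undetectable with 3 mice.

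The change of each gene in SOD1 G93A mice was set against its change in old mice by an interaction term, in a single fit of all 22 libraries. Kit and experiment coincide in this fit and cannot be told apart. Of all genes tested, 25.8% passed, 11.6% upward and 14.2% downward, and of the 9 members Cldn11 alone did so in this fit, while without control d4438 Opalin also passed (0.84, adjusted p = 0.0345). The SOD1 G93A change in Cldn11 exceeded the aging change by 0.91 on the log2 scale (SE 0.13, adjusted p = 3.13e-05). For Ugt8a the difference was -0.08 with a 95% interval from -0.45 to 0.30 (adjusted p = 0.805), which does not show the changes to be equal. The difference of Mal was 0.27 (interval 0.03 to 0.51, adjusted p = 0.0872) and that of Mbp -0.22 (interval -0.47 to 0.03, adjusted p = 0.183).

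Ratios of CPM within a library do not depend on how libraries are scaled against each other. Cldn11 over Ugt8a was 1.27–1.55 in young and 1.66–2.22 in old mice, and 1.35–1.61 in control and 2.67–5.97 in SOD1 G93A mice. The ranges did not overlap in either comparison. Mbp over Ugt8a was 39.9–52.3 in young and 69.2–98.8 in old mice, and Mbp over Mal was 22.4–26.5 in young and 33.2–45.7 in old mice, so that in every old mouse Ugt8a and Mal were lower relative to Mbp than in any young mouse. Mag over Cnp was 0.761–0.885 in young and 0.854–0.972 in old mice, ranges that overlapped, and 0.763–0.827 in control and 0.877–0.946 in SOD1 G93A mice, ranges that did not. With 3 mice in each group, 25.7% of single genes were separated upward and 24.7% downward, and no such share was computed for ratios. These ratios restate the counts tested above and carry no further test.

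**Figure D3:**
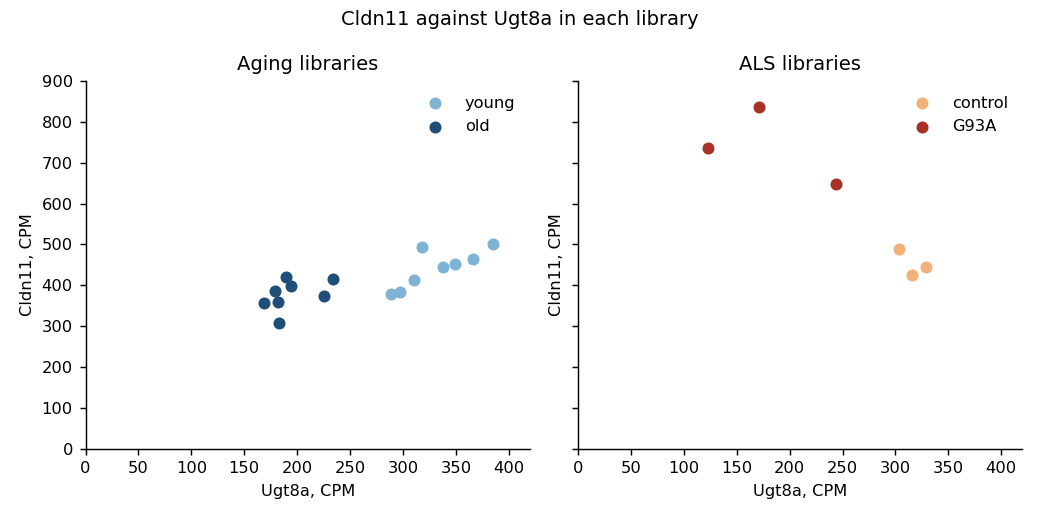
Cldn11 CPM against Ugt8a CPM, 1 point per mouse, with the young and old mice and the control and SOD1 G93A mice marked by group. Old mice lie at lower Ugt8a than young mice, and SOD1 G93A mice lie at lower Ugt8a and higher Cldn11 than controls.

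Levels of the members also varied together across the libraries of an age group. Across the 16 aging libraries, with log2 CPM centred within young and old mice, 35 of the 36 pairs of members had a positive Pearson r, with a median of 0.52. The highest was Mag with Cnp at 0.92, followed by Mog with Mag at 0.86 and Cldn11 with Mal at 0.82. The lowest was Mobp with Cnp at -0.05. Ugt8a went with Mal (0.64) and Cldn11 (0.62) more than with Mog (0.21). These values are descriptions over libraries that share tissue dissection, depth and scaling, and no test was made. Young libraries d149017, d149018, d149019 and d149020 were at 15772–17283 CPM for Mbp, against 13451–14391 CPM in the other young libraries. For Mag they were at 797–953 against 759–776 CPM, and for Cldn11 at 452–501 against 379–444 CPM. The part of this split in the r values was not tested, and no r of other gene pairs is given beside them.

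Schwann cells make the myelin of nerve roots outside the cord, and some of the 9 genes, Mbp, Mag and Mal among them, are also expressed there. Prx, a protein of myelinating Schwann cells, had a median of 0.454 CPM in young, 0.757 CPM in old, 1.15 CPM in control and 1.43 CPM in SOD1 G93A mice. It stood out in 2 libraries, at 17.4 CPM in old d149032 and 20.9 CPM in SOD1 G93A d4435. Without d4435, Cldn11 had a log2 fold change of 0.72 (adjusted p = 0.00415) and Ugt8a of -0.60 (adjusted p = 0.0157), and without d149032 Ugt8a had -0.76 (adjusted p = 7.34e-08) and Mal -0.51 (adjusted p = 2.52e-06) in old mice. In aging 13.5% of all genes tested rose and 12.9% fell, and in ALS 18.4% rose. Of the 11 Schwann cell markers listed, 6 could be tested in aging, of which 3 rose and 1 fell, and 8 in ALS, of which 3 rose. Their summed level was 159.5–176 CPM in young and 177–251 CPM in old mice. It was 166–181 CPM in control and 206–439 CPM in SOD1 G93A mice, and neither comparison showed overlap. Of single genes, 3.66% were separated upward in old and 25.7% in SOD1 G93A mice, and no such share was computed for sums. Pmp22, which other cells of the cord also express, was at 109–126 CPM in young, 126–145 CPM in old, 97.7–115 CPM in control and 129.8–203 CPM in SOD1 G93A mice, with log2 fold changes of 0.20 (adjusted p = 0.000934) in old and 0.57 (adjusted p = 0.0232) in SOD1 G93A mice, the latter not passing without d4438, d4441, d4444 or d4443 (adjusted p up to 0.0952). The part of these levels in the results for the 9 genes was otherwise not tested.

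Further oligodendrocyte genes were grouped by their known roles. All gene lists used here were chosen with earlier results of these data known. Among all genes tested, 13.5% rose and 12.9% fell in old mice, and 18.4% rose and 15.5% fell in SOD1 G93A mice. The counts of the list were not tested against these shares. Of 33 further genes of mature oligodendrocytes and myelin, 6 rose and 11 fell in old mice with a median log2 fold change of -0.03, and 5 rose and 7 fell in SOD1 G93A mice with a median of -0.20. Enpp2, which makes lysophosphatidic acid, fell in both comparisons (-0.40 and -0.71, adjusted p = 1.38e-05 and 0.00696), and Apod, a lipid-binding apolipoprotein, rose in both (0.60 and 1.60, adjusted p = 4.76e-06 and 0.00408). Trf, the iron carrier transferrin, rose by 0.60 in SOD1 G93A mice (adjusted p = 0.0033).

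The genes around Ugt8a in galactolipid metabolism were counted as lists of synthesis and breakdown. The shares of all genes tested were 13.5% rising and 12.9% falling in old mice, and 18.4% and 15.5% in SOD1 G93A mice. Of 7 genes of galactolipid synthesis, 3 fell in old mice and 1 fell in SOD1 G93A mice at an adjusted p under 0.05. Fa2h and Gal3st1 are also among the 33 genes above, so their falls are counted in both lists. Fa2h, which hydroxylates the fatty acid of myelin galactolipids, had log2 fold changes of -0.59 (adjusted p = 1.54e-05) and -0.56 (adjusted p = 0.0178), the latter not passing without d4438, d4444 or d4443 (adjusted p up to 0.0707). Gal3st1, which turns galactosylceramide into sulfatide, fell in old mice (-0.31, adjusted p = 0.0156), as did Sptlc2, a subunit of the first enzyme of sphingolipid synthesis (-0.17, adjusted p = 0.0158). The sign of Sptlc2 turned when limma was run on FPKM, to 0.10. Of 5 genes of galactolipid breakdown in lysosomes, 4 rose in old mice and 5 with the SOD1 G93A transgene. Asah1, the acid ceramidase, rose by 0.30 and 0.69 (adjusted p = 8.87e-05 and 0.00418) and Psap, the saposin precursor, by 0.23 and 0.54 (adjusted p = 0.00165 and 0.0104), the latter not passing without control d4441 or d4444 (adjusted p up to 0.0551). Galc, which cleaves galactosylceramide, rose by 0.54 in SOD1 G93A mice (adjusted p = 0.0054). Several of these lysosomal genes are also expressed by microglia, whose markers rose as given below. The part of microglia in the levels of the breakdown genes was not tested.

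Genes that set or mark the stages of the oligodendrocyte lineage were counted next, with Nkx6-2 also among the 33 genes above. Beside them, 13.5% of all genes tested rose and 12.9% fell in old mice. In SOD1 G93A mice 18.4% rose and 15.5% fell, and the counts below were not tested against these shares. Of 11 oligodendrocyte transcription factors, 2 fell in old mice, Olig1 (-0.24, adjusted p = 0.000584) and Olig2 (-0.31, adjusted p = 0.00142), and 2 rose in SOD1 G93A mice, Nkx6-2 (0.56, adjusted p = 0.0210) and Tcf7l2 (0.85, adjusted p = 0.0300). Of 10 oligodendrocyte precursor markers, 1 rose and 4 fell in old mice, with a median log2 fold change of -0.21. Gpr17, a receptor of committed precursors, had -0.98 (adjusted p = 1.46e-08) and Enpp6, a marker of newly forming oligodendrocytes, -0.39 (adjusted p = 8.47e-05), while Cspg5 rose by 0.18 (adjusted p = 0.000385). In SOD1 G93A mice 5 precursor markers rose, with a median of 0.51. Among these were Cspg4 (0.78, adjusted p = 0.00824), Vcan (0.65, adjusted p = 0.0251), Lhfpl3 (0.37, adjusted p = 0.0128) and Gpr17 (0.75, adjusted p = 0.0256). Of the 10 markers, 9 had a log2 fold change above 0 and 1 below, at -0.19. Enpp6 was below 0 in every SOD1 G93A fit that left out 1 library, from -0.38 to -0.0051, and passed in none. Nkx6-2, Tcf7l2, Gpr17, Vcan and Lhfpl3 each failed to pass in SOD1 G93A mice with at least 1 library left out, d4443 for all 5, with adjusted p up to 0.0924, 0.109, 0.0856, 0.0882 and 0.0557. The summed level of the precursor markers was 597–663 CPM in young and 536–597 CPM in old mice. The lowest young and the highest old mouse were nearly equal. The sum was 654–665 CPM in control and 772–866 CPM in SOD1 G93A mice, without overlap. With 3 mice in each group, 25.7% of single genes were separated upward and 24.7% downward, and no such share was computed for sums.

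**Figure D4:**
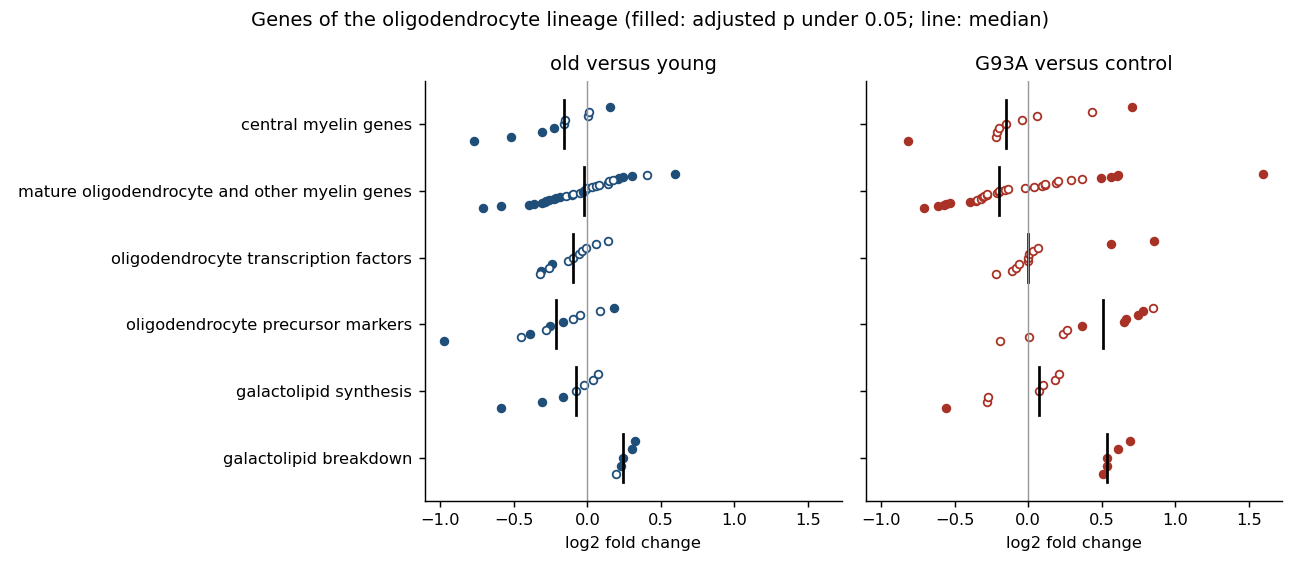
Log2 fold change of each of the 9 genes and of the tested genes of the oligodendrocyte and galactolipid lists in old against young and in SOD1 G93A against control mice; points are genes, filled where the adjusted p was under 0.05, and black lines are list medians. The breakdown genes lie above 0 in both panels, and the precursor markers lie mostly below 0 in old mice and mostly above 0 in SOD1 G93A mice.

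Markers of other cell types moved in the same libraries. Of all genes tested, 13.5% rose and 12.9% fell in old mice, and 18.4% rose and 15.5% fell in SOD1 G93A mice. Of 10 microglia markers, 9 rose in old and 8 in SOD1 G93A mice, and their summed level went from 311–357 CPM in young to 494–813 CPM in old mice and from 320.1–388 CPM in control to 1212–2023 CPM in SOD1 G93A mice. Cd68, the lysosomal protein of phagocytes, rose by 3.20 and 4.45 on the log2 scale (adjusted p = 6.53e-13 and 8.14e-05). Of 8 astrocyte markers, 3 rose and 1 fell in old mice and 5 rose in SOD1 G93A mice, where the water channel Aqp4 rose by 1.40 (adjusted p = 0.000271). Of 11 neuron markers, 1 rose and 4 fell in old mice and 9 fell in SOD1 G93A mice, with Nefh, a neurofilament of large axons, at -0.47 (adjusted p = 0.00154) and -1.52 (adjusted p = 0.000615). Of 6 endothelial markers, 2 fell in old mice and 0 passed in SOD1 G93A mice with edgeR, where 2 were lower at an unadjusted p under 0.05 and 0 passed with DESeq2. Of 7 genes that oligodendrocytes are known to raise in injury and disease, 6 rose in each comparison, with Serpina3n at 1.94 and 4.84 (adjusted p = 2.43e-11 and 0.000113) and C4b at 2.09 and 2.73 (adjusted p = 2.91e-11 and 0.000124). Serpina3n and C4b are also made by astrocytes and microglia. The part of these cell types in the values of the 9 genes was not tested.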

How the data were processed

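Per the labels and the study's methods, the authors used STAR for alignment to mm10 and RSEM for summing reads over Ensembl genes. SAMtools 1.3 is also named in the submitters' processing notes. The authors deposited RSEM expected counts, not normalised between libraries, and log2 values of FPKM plus a pseudocount of 1. These counts were rounded to integers. Symbols and positions came from GENCODE M21 (GRCm38), which held 21919 of the 21995 genes. The chi-square over genes of any library pair of a group was at least 2.52 per degree of freedom, so all 22 libraries were kept as separate samples. Each library is a separate mouse per the study's methods.

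For each comparison, genes were kept by filterByExpr (minimum count 10, minimum total 15), scaled by TMM and tested with edgeR 4.0.16 (R 4.3.3) by its quasi-likelihood method, with Benjamini-Hochberg adjustment across the whole table. A gene was called at an adjusted p under 0.05. CPM use the TMM library sizes. FPKM were taken back from the deposited log2 values. The self-check used simulated counts. The members and the gene lists were chosen with earlier results of these data known. Other genes were named by a rule of at most 3 per list and comparison with the smallest adjusted p, of which some are not reported here. Gpr17 is given in both comparisons, and Prx, Sod1 and Dnajc7 are named as checks. Alternatives were DESeq2 1.42.0, RLE scaling, total counts, other filters, a single fit of all libraries, limma 3.58.1 on log2(FPKM + 1) and each library left out. For the interaction, only the 6 SOD1 G93A and control libraries were left out in turn.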

Additional observations from a re-analysis of the deposited data

Results flagged for a closer look

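Genes are listed here where the change in SOD1 G93A mice differed from the change in old mice by the interaction term of the edgeR fit of all 22 libraries, in which kit and experiment cannot be told apart. The difference is given as the SOD1 G93A change minus the aging change on the log2 scale. Among the 9 central myelin genes it was 0.91 for Cldn11 (adjusted p = 3.13e-05). Apod differed by 0.98 (adjusted p = 0.00279). The precursor receptor Gpr17 differed by 1.70 (adjusted p = 5.48e-06), with a fall in old and a rise in SOD1 G93A mice. The acid ceramidase Asah1 differed by 0.37 (adjusted p = 0.0145) and Pmp22 by 0.34 (adjusted p = 0.0407). Serpina3n differed by 2.87 (adjusted p = 7.41e-07) and Cd68 by 1.22 (adjusted p = 0.00635), both larger in SOD1 G93A mice. Nefh differed by -1.08 (adjusted p = 0.000619). In the 18 groups of 8 values, the 9 genes in young and old mice, no single mouse lay apart by Dixon's criterion, and the groups of 3 were too small for it.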

How the results depend on the processing

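No paired analysis was possible because the columns of the tables carry no replicate numbers. For the 9 genes, 350 of 405 alternative values kept the direction and the side of the threshold, 14 lost the call, 13 gained it and 28 changed sign. Of 638 values of other named genes, 606 kept both, 31 lost the call and 1 changed sign. In old mice the single gene called higher, Mbp, gave a count of 0 with no filter, with limma, with a single fit of all libraries and at the study's thresholds, and of 0 to 1 with each library left out. The 4 called lower became 0 at the study's thresholds. In SOD1 G93A mice the gene called higher became 0 at those thresholds. The gene called lower became 3 in the single fit, where Mal and Mobp also passed, and 0 at the study's thresholds. With each library left out this count ranged from 0 to 2, the highest without SOD1 G93A library d4437, where Mal also passed. Over the other lists, the 33 calls upward in old mice became 10 and the 26 downward 0 at the study's thresholds. Those in SOD1 G93A mice became 18 upward and 3 downward at these thresholds and 27 downward in the single fit. With each library left out the SOD1 G93A counts over these lists ranged from 24 to 48 upward and from 8 to 24 downward, against 38 and 16, with the lowest upward count without control d4441 and the lowest downward count without SOD1 G93A library d4443. In the interaction, the number of members higher was 2 with total counts, where Mal also passed, and 1 to 2 with each library left out. The called fall of Sptlc2 in old mice (-0.17) turned to 0.10 with limma. The other signs that turned were of values that had not passed the test. With limma Mag was at -0.045 in old and -0.035 in SOD1 G93A mice. Without a filter Opalin was at -0.0056 in old mice. With total counts Mbp was at 0.0031 in SOD1 G93A mice, and the interaction was 0.045 for Cnp and 0.0034 for Ugt8a. With each library left out, Mag ranged from -0.013 to 0.034 and Opalin from -0.046 to 0.043 in old mice, and Mbp from -0.13 to 0.031 in SOD1 G93A mice. The interaction ranged from -0.0021 to 0.20 for Mog, from -0.0077 to 0.088 for Mag, from -0.079 to 0.057 for Cnp and from -0.37 to 0.14 for Ugt8a. The cause was not tested, other than that leaving out a library leaves fewer mice to test.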

Other observations

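The genes that went most closely with the 9 central myelin genes from mouse to mouse were found by the Pearson r of each gene with the mean of the 9, on log2 CPM centred within young and old mice, over the 16 aging libraries. The 5 highest outside the 9 were Gltp (0.90), which encodes a glycolipid transfer protein, Serpinb1a (0.89), Stmn4 (0.88), Efnb3 (0.87), which encodes an ephrin, and 4930402H24Rik (0.87). The libraries share depth and scaling between genes, and these values are a description without a test. The split among young libraries given with the correlations of the members was left in.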
